A study of Mus musculus with 6106 samples.

Results

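Splenic regulatory T cells (Tregs) that held transcripts of Igfbp4 together with Ly6c1 or Ly6c2, and none of S100a4 or Ccr2, are described here and called the gated cells. A cell was taken when it had at least 500 unique molecular identifiers (UMIs, the counted transcripts), at least 1 UMI of Igfbp4, at least 1 UMI of Ly6c1 or Ly6c2, and 0 UMIs of S100a4 and of Ccr2. The rule was met by 379 of the 5435 cells with at least 500 UMIs, out of 6106 cells deposited. The other 5056 cells with at least 500 UMIs, taken bin by bin, served as the comparison. The members were thus chosen by their own UMI counts of Igfbp4, Ly6c1, Ly6c2, S100a4 and Ccr2, so the levels of these 5 genes are descriptions and support nothing.

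Tregs are CD4 T cells that hold back immune responses and depend on Foxp3, a transcription factor. In lymphoid organs, central or resting Tregs carry the receptors that keep T cells in recirculation, such as CCR7, whereas effector Tregs have met antigen and carry activation and tissue-homing genes. Igfbp4 encodes a secreted protein that binds insulin-like growth factors, and Ly6c1 and Ly6c2 encode small membrane-anchored proteins that are carried by some resting and memory T cells. S100a4, a calcium-binding protein, and Ccr2, a chemokine receptor, mark effector cells. Nr4a1, a nuclear receptor gene, is an early response gene of T cell receptor (TCR) signalling, and a green fluorescent protein (GFP) placed under its control marks cells that signalled recently.

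The cells came from spleens of male B6 Nr4a1-Gfp Foxp3-Ires-Thy1.1 mice aged 10 months, and all groups shared both reporters. They had been sorted as DAPI-negative cells with TCR beta, CD4 and the Thy1.1 reporter of Foxp3, into bins covering 0 to 20 (GFPlow), 40 to 60 (GFPmed) and 80 to 100 percent (GFPhigh) of the Nr4a1-GFP range. Each bin gave 1 library by inDrops, in which each cell is barcoded in its own droplet, and the number of mice behind a library is not given in the labels. With 1 library per bin and 0 replicates no test between conditions was possible. All intervals below are 95% intervals of counting error alone.

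The rule accepts either Ly6c gene, and their coding sequences are closely alike. The first 300 bases of both coding sequences are shown, 5′ to 3′, with the 7 bases that differ in capitals. They come from GENCODE M21 on GRCm38, where Igfbp4 is a protein-coding gene at chr11:99041244-99054392 on the plus strand, Ly6c1 lies at chr15:75044018-75048830 and Ly6c2 at chr15:75108158-75111970, both on the minus strand.
Ly6c1: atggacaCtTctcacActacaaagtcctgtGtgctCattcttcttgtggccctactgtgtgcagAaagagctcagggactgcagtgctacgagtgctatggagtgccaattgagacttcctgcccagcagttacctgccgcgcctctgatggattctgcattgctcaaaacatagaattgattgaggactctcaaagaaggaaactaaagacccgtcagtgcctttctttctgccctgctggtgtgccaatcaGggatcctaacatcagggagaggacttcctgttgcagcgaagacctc
Ly6c2: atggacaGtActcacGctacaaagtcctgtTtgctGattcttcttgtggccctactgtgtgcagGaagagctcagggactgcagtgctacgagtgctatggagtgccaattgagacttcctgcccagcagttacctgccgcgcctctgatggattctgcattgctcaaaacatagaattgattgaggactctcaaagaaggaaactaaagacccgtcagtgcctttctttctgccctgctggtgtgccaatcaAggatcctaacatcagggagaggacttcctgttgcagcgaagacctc
The whole coding sequences are 396 bases long and share 387 of them (97.7%). The last 300 bases of the transcripts, nearer to what an oligo-dT method reads, share 93.5% of their aligned positions. Reads of one gene could therefore have been counted for the other, and Ly6c1 and Ly6c2 were added up.

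Most gated cells met the rule with few transcripts. Igfbp4 was seen with exactly 1 UMI in 48.3% of them, the Ly6c genes together with exactly 1 UMI in 91 cells, and 39 cells had exactly 1 of each, while 38.0% had at least 2 of each. The highest counts in a cell were 14 for Igfbp4 and 18 for the Ly6c genes. UMIs of both Ly6c genes were found in 71.8% of the gated cells, of Ly6c1 alone in 24.8% (94 cells) and of Ly6c2 alone in 3.43% (13 cells). The shallowest gated cell had 508 UMIs, and 8 cells under 500 UMIs, the deepest with 499, met the gene conditions. The limit on S100a4 and Ccr2 left out only 5 cells that were positive for Igfbp4 and Ly6c, 1 of them with a single UMI of those genes.

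Depth differed between gated and other cells. Median UMIs per gated cell were 1295 in GFPlow, 1901.5 in GFPmed and 1611 in GFPhigh, against 1071, 1501 and 1120 in the other cells. Summed over cells, the gated cells held 241541, 316987 and 62044 UMIs, so that 0 UMIs of a gene allow up to 12.4, 9.46 and 48.4 UMIs per 1000000 UMIs of all genes (UPM). GFPhigh, with 37 gated cells, is by far the least precise. Across the libraries 95 of 6010 cell barcodes occurred in at least 2, including those of 17 gated cells. Without such cells 2.09% of the genes measured were called higher and 546 genes lower, against the 1.95% and 571 genes given below.

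Gated cells were most frequent in GFPlow and GFPmed and least frequent in GFPhigh. They made up 8.48% of GFPlow cells (180 cells, exact Clopper-Pearson interval 7.33 to 9.75), 10.5% of 1537 GFPmed cells (9.05 to 12.2) and 37 of 1775 GFPhigh cells (2.08%, 1.47 to 2.86). When every cell was thinned to 500 UMIs the shares were 3.91% (3.13 to 4.82), 2.86% (2.09 to 3.82) and 0.732% (0.391 to 1.249). GFPhigh was lowest on both measures, but GFPlow and GFPmed stood in opposite orders, so their order is not read. In 70 cells with B cell or erythroid markers, at a median of 1299.5 UMIs, Igfbp4 was found in 0, which allows up to 5.13%, and a Ly6c gene in 5 (7.14%). After thinning, a Ly6c gene was found in 1 of these 70 (1.43%), against 14.6%, 16.5% and 6.87% of all GFPlow, GFPmed and GFPhigh cells.

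**Figure D1:**
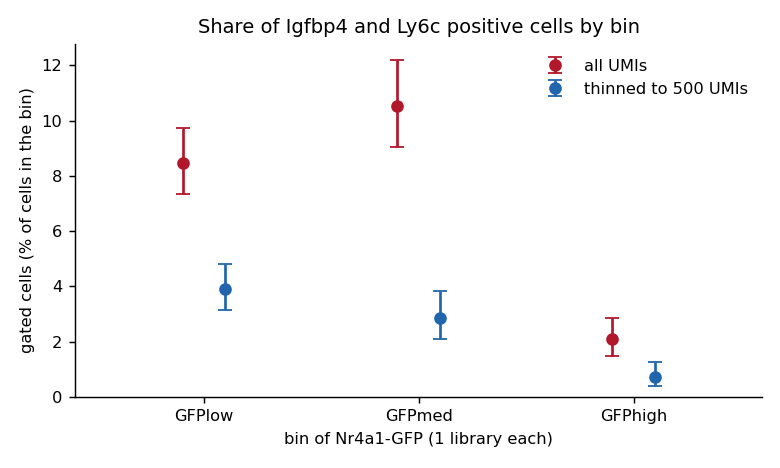
Share of gated cells (y axis, % of cells with at least 500 UMIs) in each bin (x axis), with all UMIs (red) and with every cell thinned to 500 UMIs (blue). Points are single libraries and bars exact 95% binomial intervals. GFPhigh lies lowest on both measures, at 2.08% and 0.732%.

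How often Igfbp4 and Ly6c transcripts met in 1 cell is a description only, since the rule used these genes. Among thinned cells without S100a4 or Ccr2, the share with both was 1.63 times the product of their shares in GFPlow, 1.12 times in GFPmed and 1.67 times in GFPhigh. Without thinning the ratios were 1.64, 1.27 and 1.87. Cells with one of the 2 and not the other are described further on.

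The name of the cells was checked against markers of Tregs and of central Tregs. Foxp3 stood at 252.5, 337.6 and 338.5 UPM in GFPlow, GFPmed and GFPhigh gated cells, against 404.7, 314.3 and 359.5 UPM in the others, a log2 ratio of -0.22 (-0.44 to -0.01) over the 3 bins. Cd4 had a ratio of -0.21 (-0.40 to -0.02) and Thy1, whose counts could include the Thy1.1 reporter, -0.13 (-0.24 to -0.02). Over the bins these ratios lie near that of the median gene (-0.12), but in GFPlow Foxp3 had -0.68 (-1.08 to -0.31) and Cd4 -0.42 (-0.73 to -0.13), both below it. Thinned to 500 UMIs, 10.6%, 17.3% and 18.9% of gated cells had a Foxp3 UMI, against 16.6%, 12.4% and 16.1% of the others. In the B cell or erythroid marker cells the share was 7.14% (2.36 to 15.9), and the interval of the GFPlow gated cells (6.48 to 16.0) overlapped it. The word central in the cells' name is met in part, by Ccr7, Lef1, Bcl2 and Satb1, and not by Il7r, as described below.

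Ratios of gated over other cells were pooled over the bins as a Mantel-Haenszel ratio of UMIs. A gene with at least 200 UMIs was called when the level was at least 25% higher or 20% lower in gated cells, the interval of the ratio left out 1, and every bin went the same way. Of 4965 genes measured, 97 were called higher (1.95%) and 571 lower (11.5%), the gate genes left out. Calls to the higher side made up 14.5% of all calls, 24.9% with scaling factors from the trimmed mean of M-values (TMM) and 33.9% when levels were scaled to UMIs outside ribosomal protein genes. With so many genes, intervals of single genes leave out 1 by counting error alone in part of them. Going the same way in every bin is part of the call and adds no further check, and a bin without gated UMIs counted as lower. Some genes described below rest on few gated UMIs or were not called.

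Myo6 had the largest ratio among the genes called higher. It encodes myosin VI, an actin motor. Its level was 310.5, 208.2 and 112.8 UPM in GFPlow, GFPmed and GFPhigh gated cells, from 75, 66 and 7 UMIs, against 113.5, 50.6 and 21.7 UPM in the others. The level was higher in the gated cells of every bin, and in gated and in other cells alike it was highest in GFPlow and lowest in GFPhigh. The log2 ratio was 1.72 (1.45 to 2.0), and 1.73 when at least 2 UMIs of Igfbp4 and of Ly6c were asked for. Thinned to 500 UMIs, 11.7%, 5.56% and 8.11% of gated cells had a Myo6 UMI, against 3.91%, 2.33% and 0.69% of the others and 0 of the 70 B cell or erythroid marker cells, which allows up to 5.13%. With all UMIs these shares were 20.6%, 18.5% and 13.5% of gated and 6.79%, 4.65% and 1.55% of other cells.

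Satb1, a chromatin organiser of T cells, was like Myo6 higher in the gated cells of every bin. It stood at 666.6, 536.3 and 709.2 UPM in gated cells and at 305.3, 412.7 and 453.7 UPM in the others. The log2 ratio was 0.69 (0.53 to 0.85) over the 3 bins. By bin it was 1.13 (GFPlow), 0.38 (GFPmed) and 0.64 (GFPhigh), and the gap was widest in GFPlow, where the other cells had least. Without GFPlow the ratio was 0.43. Cnn3, an actin-binding calponin, had the second largest ratio (1.56, 1.04 to 2.08). That value rests on 16, 18 and 5 gated UMIs and was 0.83 with at least 2 UMIs of each gate gene, and 0.44 with the gate set on thinned cells.

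The other top genes were rarer. Sp6 (a zinc finger factor, 1.05), Cab39l (1.0), Zbtb11 (0.97), Rab3ip (an exchange factor for Rab proteins, 0.96), Dpcd (0.90), St8sia6 (a sialyltransferase, 0.82), Ap2a2 (a clathrin adaptor subunit, 0.77), Smn1 (an RNA assembly factor, 0.74) and Hsd17b11 (a steroid dehydrogenase, 0.74) were called. Several of these rest on 1 bin: Zbtb11 was 0.48, Ap2a2 0.49 and Hsd17b11 0.57 without GFPlow, and Tex2 (1.04) was 0.30 without GFPmed. Ifngr2, a chain of the interferon gamma receptor (0.86), and Igsf23 (0.73) each lay below 0 under another gate, with Ifngr2 at -0.09 when 2 UMIs of each were asked for and Igsf23 at -0.03 on thinned cells. Rab3ip was 0.37, St8sia6 0.43 and Smn1 0.24 with the gate on thinned cells, and Hsd17b11 was 0.21 with at least 2 UMIs of each gate gene.

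Ribosomal protein genes dominated the genes that were higher in each bin by a small margin. When the interval had to lie on one side of 0 in every bin, a count chosen after the values were seen, 40 genes were higher (0.806% of those measured) and 17 lower (0.342%). Of the 40, 33 were ribosomal protein genes, such as Rps6 (0.28), Rpl8 (0.33) and Rps18 (0.27), and the remaining 7 were Myo6, Rab3ip, Satb1, Eef1b2 (a translation elongation factor subunit, 0.33), Gnb2l1 (a ribosome-bound scaffold, 0.22), Tpt1 (0.22) and Tmsb10 (0.25). Ribosomal protein genes took 30.4%, 32.3% and 29.4% of the UMIs of gated cells in GFPlow, GFPmed and GFPhigh, against 25.0%, 28.9% and 25.9% of the others. Weighting the other cells to the depth of the gated ones gave 25.2%, 29.2% and 26.1%. Single cells overlapped widely, with quartiles of 28.1% and 32.8% in gated and 19.7% and 29.7% in other GFPlow cells.

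**Figure D2:**
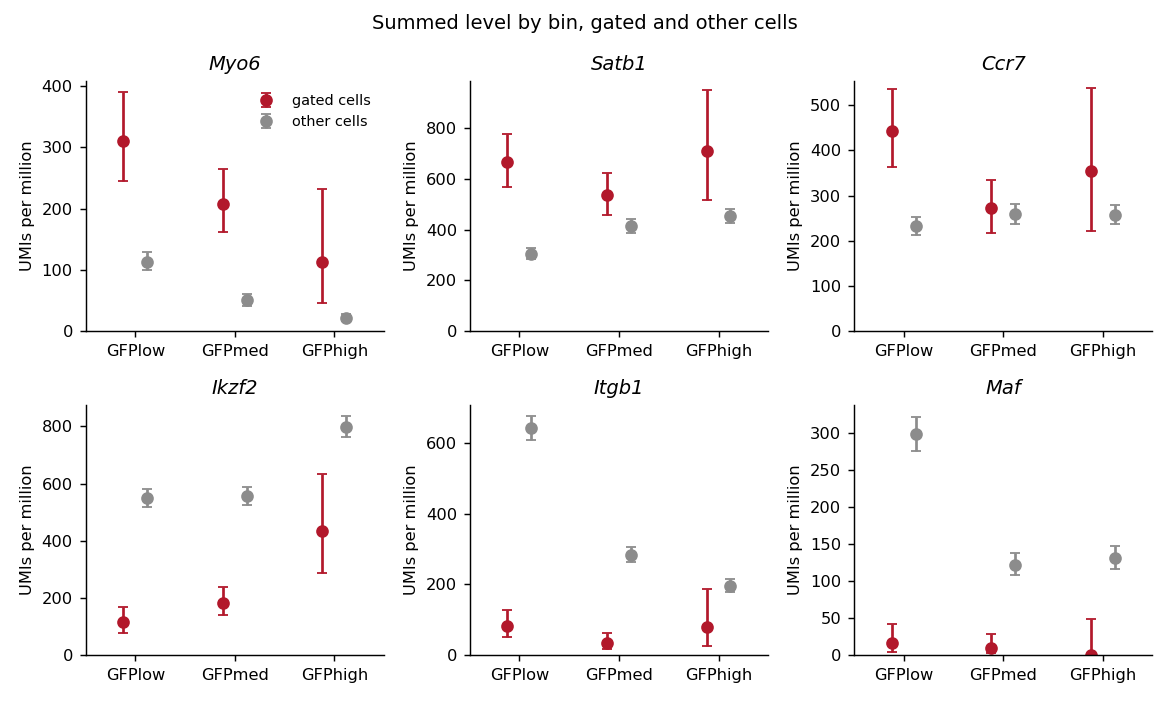
Level of 6 genes in UPM (y axes, from 0) by bin (x axes), summed over gated cells (red) and other cells (grey), with exact 95% Poisson intervals. Myo6 and Satb1 lie higher in the gated cells of every bin, Ccr7 mainly in GFPlow, and Ikzf2, Itgb1 and Maf lie lower in every bin.

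Of 32 measured genes of central and resting Tregs, 5 were called higher and 1 lower, beside 1.95% and 11.5% of all genes, and their median log2 ratio was 0.14 against -0.12 over all genes. Those called higher were Lef1 (0.80, 0.26 to 1.34) and Satb1, both transcription factors of resting T cells, Ly6a (0.52, 0.37 to 0.67), a relative of Ly6c, Ccr7 (0.49, 0.28 to 0.70), the lymph node homing receptor, and Bcl2 (0.40, 0.24 to 0.56), a survival factor. Lef1 was 0.13 with at least 2 UMIs of each gate gene.

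Ccr7 stood at 443, 271.3 and 354.6 UPM in GFPlow, GFPmed and GFPhigh gated cells and at 232.4, 258.3 and 257.7 UPM in the others. The gap was widest in GFPlow (0.93, 0.62 to 1.23), against 0.07 (-0.27 to 0.40) in GFPmed, and without GFPlow the ratio was 0.15, under the 25% mark. Ly6a showed the reverse, with 683, 729 and 387 UPM against 633, 392 and 238 UPM, and a ratio of 0.18 without GFPmed. Klf2 (0.22, 0.07 to 0.36) and S1pr1 (0.25, 0.11 to 0.39), the egress factor and receptor, lay above 0 by a small amount, and Tcf7 (0.09, -0.15 to 0.33) was not separated from 0. Cd55, a complement regulator, reached 0.60 (0.07 to 1.13) but was not higher in GFPhigh, where the gated cells held 1 UMI.

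Il7r, the interleukin 7 receptor of resting T cells, was the member called lower. It had 124.2, 69.4 and 0 UPM in gated cells, with 30, 22 and 0 UMIs, against 201.4, 104.8 and 76.1 UPM in the others (-0.74, -1.15 to -0.34). It was lower also against cells without S100a4 or Ccr2 only (-0.67).

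The effector Treg list held the deepest gaps. Of its 25 measured members 21 were called lower and 1, Myo6, higher, with a median of -1.23. Since the rule bars S100a4 and Ccr2, cells with effector genes were removed by choice, so the same list was read against other cells without these genes, where its median was -1.17. S100a6, a relative of S100a4, had 2, 3 and 0 gated UMIs, at 8.28, 9.46 and 0 UPM against 433, 140 and 67.0 UPM, a ratio of -4.95 (-6.56 to -3.71), and -3.71 against cells without S100a4 or Ccr2. Itgb1, the integrin beta 1 chain, had 82.8, 34.7 and 80.6 UPM against 643, 284 and 196 UPM (-2.83, -3.30 to -2.35), and Maf, a transcription factor of effector T cells, had 16.6, 9.46 and 0 UPM against 298.04, 122.1 and 131.3 UPM (-4.10, -5.40 to -3.04). All 3 genes were lower in the gated cells of every bin.

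Among the rest, Myo1f (-4.59), Anxa2 (-3.26) and Glrx (-3.21), coding for a myosin, an annexin and a glutaredoxin, rested on 1, 2 and 6 gated UMIs, and the interval of Anxa2 was -6.38 to -1.45. Icos, an activation receptor named after its values were seen, had 49.7, 25.2 and 16.1 UPM against 267.96, 154.9 and 177.1 UPM (-2.58, -3.27 to -1.95). The chemokine receptor Cxcr3 and Fgl2, a secreted effector, had 0 UMIs in the gated cells, which makes them at least 9.29-fold and 6.74-fold lower by the limit of 3 UMIs over the group. Crip1 (0.11, -0.04 to 0.26) and Il18r1 (-0.19, -0.88 to 0.43) were not called, nor was Gata3 (-0.51), which was higher in GFPhigh gated cells. Tnfrsf18 (-0.42), Vim (-0.52) and Tnfrsf4 (-0.68) had the smallest gaps of those called lower.

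The Treg signature was also lower in part. Of 22 measured members 0 were called higher and 12 lower, with a median of -0.48. Ikzf2, which encodes the transcription factor Helios, stood at 115.9, 182.97 and 435.2 UPM in GFPlow, GFPmed and GFPhigh gated cells against 549, 555 and 800 UPM in the others (-1.65, -1.92 to -1.38). Thinned, 6.67%, 6.17% and 13.5% of gated cells had an Ikzf2 UMI, against 20.3%, 20.9% and 27.8% of the others and 7.14% of the B cell or erythroid marker cells. The share in GFPlow and GFPmed gated cells was therefore near that of the marker cells, whose interval was 2.36 to 15.9. With all UMIs it was 11.1% and 19.8%, against 12.9% of the marker cells. The marker cells also held Foxp3 UMIs (7.14% of them after thinning), and whether their Ikzf2 share is background was not tested. The summed Ikzf2 level in the gated cells was not 0. Nrp1, a coreceptor, had a ratio of -1.19 (-1.50 to -0.88), Nt5e, the ectoenzyme CD73, -1.23 (-1.85 to -0.68) and Ctla4, an inhibitory receptor, -1.08 (-1.59 to -0.56). Il2ra, the interleukin 2 receptor alpha chain, differed less (-0.31, -0.53 to -0.09) and was not called. Against cells without S100a4 or Ccr2 the list median was -0.42.

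Of 18 measured TCR response genes 1 was called higher and 8 lower, and the median was -0.60. Cd83 (-2.77, -4.63 to -1.37), a surface protein of activated cells, had 4 gated UMIs, and Penk, which encodes an enkephalin precursor, had 0, at least 4.38-fold lower. Tnfrsf9, the costimulatory receptor 4-1BB, had 12.4, 12.6 and 113 UPM against 21.4, 55.1 and 275.8 UPM (-1.49, -2.38 to -0.74). Nr4a1 itself had 24.8, 59.9 and 193 UPM against 36.9, 97.5 and 345 UPM (-0.73, -1.21 to -0.25). The summed level was lower in the gated cells of every bin, but in GFPlow it came from 6 UMIs and the interval held 0 (-0.57, -2.06 to 0.61), and 21.6% of all its gated UMIs lay in 1 cell. The share of thinned cells with an Nr4a1 UMI did not follow in 2 of the bins, with 1.67%, 3.70% and 2.70% of gated cells against 1.08%, 3.20% and 8.17% of the others. Cd69, an early activation marker, was the member called higher (0.52, 0.14 to 0.90), and Myc (0.21), Egr1 (0.34) and Ier2 (0.05) had intervals that held 0. In GFPlow the summed level of all list genes was 1184 UPM in gated and 1179 UPM in other cells, against 991 and 1402 UPM in GFPmed and 1708 and 2579 UPM in GFPhigh. This sum weights the abundant members most. Cd83 (-1.72) and Tnfrsf9 (-0.79), like Nr4a1, lay below 0 in GFPlow too, with intervals that held 0.

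**Figure D3:**
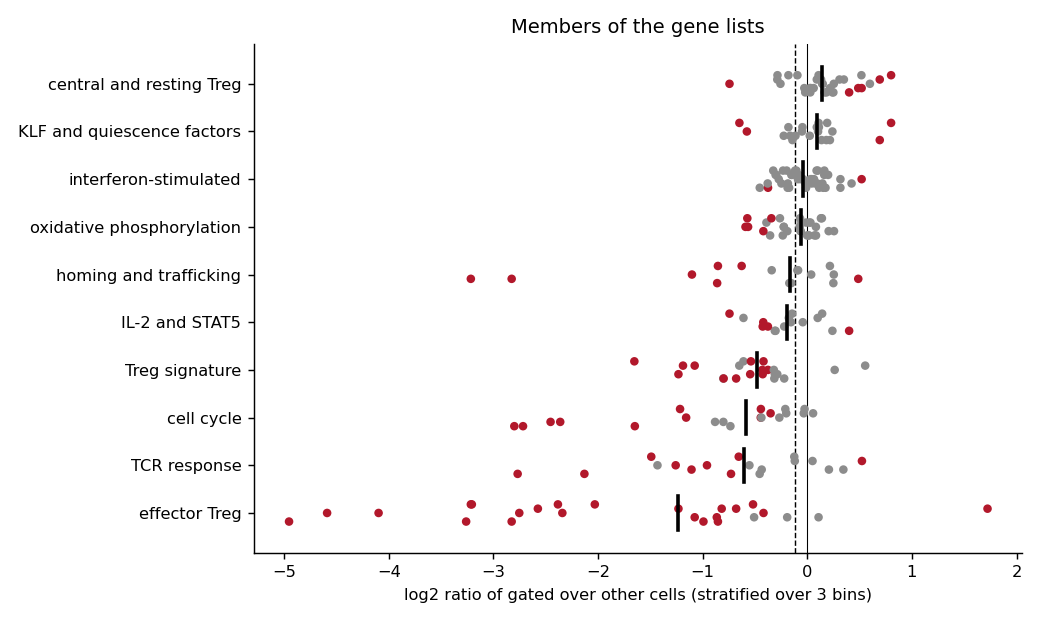
Log2 ratio of gated over other cells (x axis) for each measured member of 10 gene lists (y axis), pooled over the 3 bins, with called genes in red, others in grey and the list median as a black bar. The dashed line marks the median of all genes (-0.12), and genes with 0 gated UMIs stand at their bound. The effector list lies lowest, with a median of -1.23, and Myo6 stands apart on its right.

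Homing genes were more often called lower than higher. Of 16 measured, 1 (Ccr7) was called higher and 6 lower, beside 1.95% and 11.5% of all genes. Among those called lower were Itga4 (-1.10, -1.46 to -0.75), Itgal (-0.63, -0.88 to -0.38), Cd44 (-0.85, -1.36 to -0.35) and Cxcr4 (-0.86, -1.84 to -0.03), integrin chains, an adhesion receptor and a chemokine receptor. Cell cycle genes were called lower in 10 of 20 and higher in 0, with a median of -0.59. Mki67 had 0 gated UMIs and was at least 6.58-fold lower, and Stmn1 (-2.36), Rrm2 (-2.80) and Ube2c (-2.45) had 3 to 6 gated UMIs each. The histone genes Hist1h2ae, Hist1h2an, Hist1h2af and Hist1h2ag had ratios from -2.97 to -2.64, and from -1.51 to -1.19 when each cell had equal weight. Part of the histone and cell cycle UMIs lay in cells with markers of other types, without which Ube2c was -1.44 and Hist1h2ae -2.03.

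Most defining markers of other cell types were at 0 in the gated cells. Of 6 B cell markers 5 were at 0 and the sixth had 1 UMI, all 6 myeloid and all 3 plasma cell markers were at 0, and erythroid markers summed to 5 UMIs. CD8 T or NK cell markers summed to 23 UMIs, with Cd8a, Klrd1, Ncr1 and Gzma at 0. Of these, 22 were of Cd8b1, a CD8 chain (-0.25, -0.95 to 0.39), which was at 16.6, 53.6 and 16.1 UPM against 37.4, 46.01 and 37.6 UPM. Longer marker lists, which hold genes that T cells can also express, were not at 0. The myeloid list summed to 207.004, 189.3 and 225.6 UPM against 246.5, 447.3 and 292.5 UPM, with Bst2 at 0.32 (-0.06 to 0.70). On the plasma cell list Xbp1 (-0.19, -0.66 to 0.29) and on the stromal list Pecam1 (0.33, 0.04 to 0.62) did not pass as called. In the other cells, erythroid markers summed to 1503, 3299 and 1041 UPM and B cell markers to 54.2, 84.3 and 67.0 UPM. Genes such as Cd74, H2-Aa, Ccl5, Cd24a, Jchain and Cd79a were called lower with 0 gated UMIs. Without cells with at least 2 UMIs of the defining markers 86 genes were called higher and 553 lower, and of the 97 and 571 given above 76 and 513 were still called.

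The contribution of each gate gene was read by sorting cells without S100a4 or Ccr2 into those with Igfbp4 only (738 cells), Ly6c only (646), both (379) or neither (3294), a split chosen after the main ratios were seen. Ratios were taken over cells with neither. Myo6 had 1.31 (0.95 to 1.68) in cells with Igfbp4 only, 2.09 (1.75 to 2.43) with Ly6c only and 2.52 (2.17 to 2.87) with both. It was thus higher with either gene alone, more so with Ly6c, and the gated cells exceeded Ly6c-only cells by 0.42 (0.09 to 0.75) and Igfbp4-only cells by 1.14 (0.78 to 1.5). Satb1 had 0.68, 0.95 and 1.04, and gated cells did not differ from Ly6c-only cells beyond counting error (-0.06, -0.25 to 0.13). Cnn3 had 0.96, 0.89 and 1.91, and so was highest with both.

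Some genes followed one gate gene only. Ly6a had -0.11 (-0.28 to 0.05) with Igfbp4 only, 1.01 (0.87 to 1.14) with Ly6c only and 0.79 (0.63 to 0.95) with both, so it went with Ly6c. Il7r had -0.84 (-1.17 to -0.51), -0.12 (-0.41 to 0.18) and -0.84 (-1.26 to -0.43), and Nr4a1 had -0.69 (-1.01 to -0.37), 0.41 (0.16 to 0.66) and -0.68 (-1.17 to -0.20), so the lower levels of both went with Igfbp4. Ccr7 had 0.46, 0.19 and 0.56, and Bcl2 0.53, 0.23 and 0.50. Itgb1, Icos and Ikzf2 were lowest with both. Itgb1 had -1.60, -1.84 and -2.88, Icos -1.54, -1.26 and -2.60, and Ikzf2 -1.09, -1.19 and -1.84. This did not hold for Cd44, which had -0.94, -1.04 and -0.96. Itgb1 in gated cells was below Ly6c-only cells by a log2 ratio of -0.98 (-1.54 to -0.43) and Icos by -1.41 (-2.17 to -0.68). For Ikzf2 the gated cells were lower than Igfbp4-only cells by a ratio of -0.74 (-1.05 to -0.44) and than Ly6c-only cells by -0.57 (-0.89 to -0.25), and Nrp1 differed from neither (-0.04, -0.42 to 0.33, and -0.30, -0.67 to 0.08). Median UMIs per cell ran from 1024.5 to 1368 in cells with neither and from 1295 to 1901.5 in cells with both, and the part of depth in these orders was not tested.

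**Figure D4:**
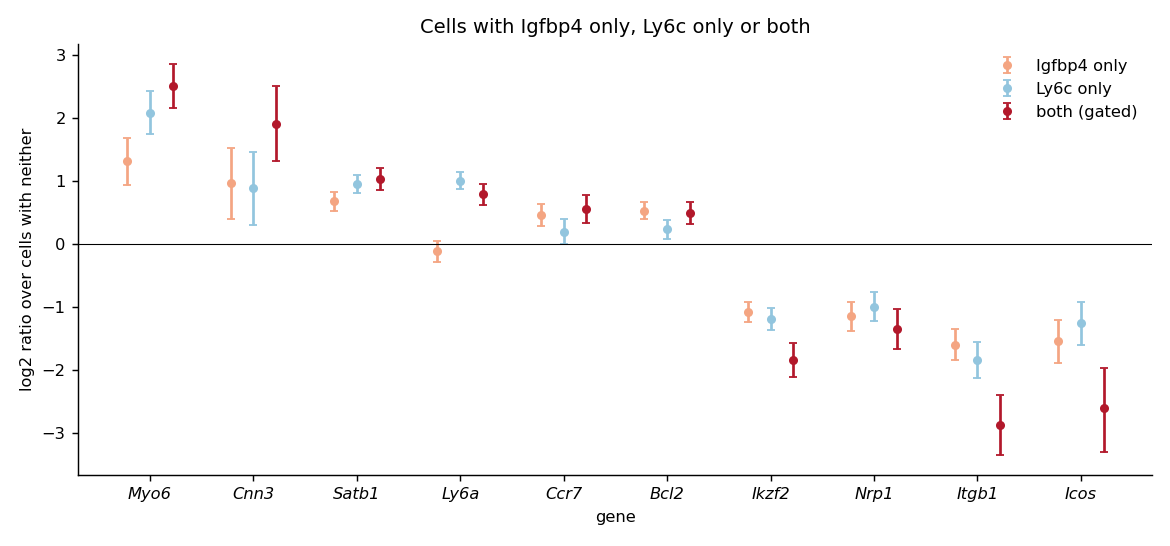
Log2 ratio over cells with neither gate gene (y axis) for 10 genes (x axis), in cells with Igfbp4 only (orange), Ly6c only (light blue) and both, the gated cells (red). Points pool the 3 bins and bars are 95% intervals of counting error. Ly6a is higher only with Ly6c, while Ikzf2, Itgb1 and Icos are lowest with both.

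Bins were then compared within the gated cells, where genes with at least 50 gated UMIs in the pair were measured and called at 1.5-fold with an interval that left out 1. From GFPlow to GFPhigh 38 of 825 genes were called higher (4.61%) and 33 lower (4%). Of the Treg signature only 5 members had enough UMIs to be measured in this pair, and 4 of them were called higher and 0 lower, with a median of 1.39 in gated and 0.64 in other cells. The minimum of 50 UMIs can keep a gene only because it is high in GFPhigh. Ikzf2 and Il2rb (29 and 28 UMIs in GFPlow and GFPhigh) were kept in that way, and Nrp1 (24 and 14) was left out. The count and median of the list are therefore partly set by that minimum and are descriptions only. Ikzf2 went from 115.9 UPM (28 UMIs in 20 cells) to 435 UPM (27 UMIs in 13 cells), a ratio of 1.91 (1.09 to 2.72) against 0.54 (0.44 to 0.65) in the other cells. Il2rb, the interleukin 2 receptor beta chain, had 1.91 (1.11 to 2.71) against 1.22, Il2ra 1.39 (0.75 to 2.02) against 0.64, and Izumo1r, folate receptor 4, 0.85 (0.44 to 1.251) against 0.81. Foxp3, the fifth, had 0.42 (-0.37 to 1.16) and was not called.

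The ratio for Ikzf2 was larger in gated than in other cells by 1.36 (0.59 to 2.13), for Il2ra by 0.75 (0.14 to 1.37) and for Il2rb by 0.69 (-0.07 to 1.46), the last within counting error. For Ikzf2 and Il2rb, kept only through their GFPhigh level, the minimum of UMIs favours such an excess. Gata3, a transcription factor, had 1.39 (0.66 to 2.11) against 0.23, and Actn4, an actin crosslinker, 2.01 (1.20 to 2.83) against 0.09. Actn4 (27 and 28 gated UMIs in GFPlow and GFPhigh) was also kept only through its GFPhigh level. Wdr89 (1.44), Luc7l2 (1.42) and Atp5e (1.41) completed the 8 highest. The 37 GFPhigh gated cells had Ikzf2 at a level between those of GFPlow gated cells and of other GFPhigh cells, which stood at 800 UPM.

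The lowest ratios from GFPlow to GFPhigh were those of Capns1 (-3.71), Dnajc8 (-2.26), Tmed9 (-2.10), Sept6 (-1.97), Sepp1 (-1.95), Elovl5 (-1.85), Emb (-1.72) and Btg2 (-1.62), each from 1 to 5 UMIs in GFPhigh gated cells. Their intervals were wide, as for Btg2, an antiproliferative factor (-3.56 to -0.17), and Capns1 (-9.04 to -1.17). Myo6 (-1.46, -2.82 to -0.35) and Ly6a (-0.82, -1.50 to -0.20) were lower in GFPhigh than in GFPlow gated cells, as they were among other cells (-2.38 and -1.41). Of 23 measured central and resting genes 0 were called higher and 3 lower, with a median of -0.02. Satb1 (0.09, -0.43 to 0.58), Ccr7 (-0.32, -1.05 to 0.35), Klf2 (-0.02, -0.52 to 0.46) and Bcl2 (0.23, -0.33 to 0.77) had intervals that held 0. In other cells, Klf2 had -0.65 and Satb1 0.57, and the difference between gated and other cells was 0.64 (0.16 to 1.12) for Klf2 and -0.48 (-0.98 to 0.02) for Satb1.

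GFPmed and GFPlow gated cells, the better filled pair, differed in 59 genes called higher (3.72%) and 84 called lower (5.29%) of 1587 measured. Treg signature genes had a median of 0.51 there, against 0.10 in other cells, with 2 of 10 called higher and 0 lower. From GFPmed to GFPhigh, 5 of 8 measured were called higher and 0 lower (median 0.83), beside 6.19% of all genes measured in that pair called higher and 3% lower. The minimum of UMIs can favour genes high in GFPhigh in this pair too.

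**Figure D5:**
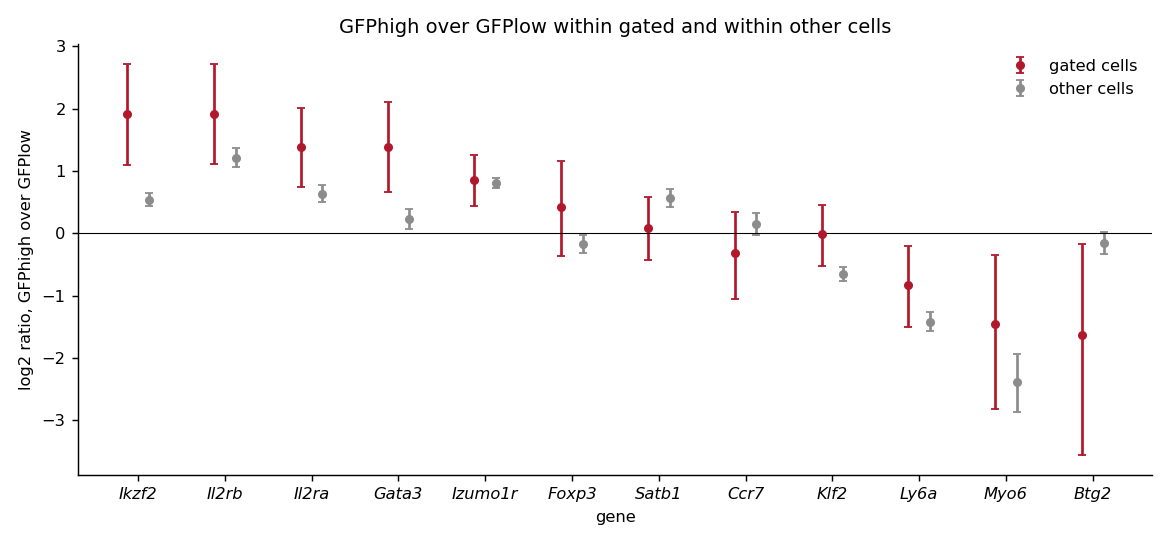
Log2 ratio of GFPhigh over GFPlow (y axis) for 12 genes (x axis), within the gated cells (red) and within the other cells (grey), with 95% intervals of counting error. Ikzf2, Il2rb, Il2ra and Gata3 lie above 0 in the gated cells, from 1.39 to 1.91, and the intervals of Satb1, Ccr7 and Klf2 hold 0.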

How the data were processed

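Single-cell libraries (inDrops) of sorted splenic Tregs were used, 1 per bin, with 2372 GFPlow, 1682 GFPmed and 2052 GFPhigh cells deposited. The authors deposited raw UMI counts per gene and cell, for 23725 genes. Per the submitters' processing notes, TopHat2, SAMtools and the mm10 genome were used. Versions, annotation, counting program and cell filters are not given in the sources used here. The members and all gene lists were chosen with earlier results of these data known.

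Cells with at least 500 UMIs were kept, and no doublets were removed. The UMIs of each gene were added up per bin and cell group and divided by the group's total, as UMIs per 1000000 (UPM), which does not correct for gene length. Gated over other ratios were pooled as a Mantel-Haenszel ratio, with exact conditional intervals up to 30 gated UMIs and delta-method intervals above. Ratios between bins have exact conditional binomial intervals, taken from the UMI counts with nothing added. UMIs of 1 cell are not independent, so the intervals may be too narrow. A count of 0 was set at 3 counts. Genes named were the 15 highest and 15 lowest called, without ribosomal protein, receptor segment and unnamed model genes or genes with over 20% of their gated UMIs in 1 cell, up to 4 members per list, the 8 highest and 8 lowest between GFPhigh and GFPlow, and set markers. Other names (Bcl2, Klf2, S1pr1, Tcf7, Icos, Cd69 and further list members) were added after their values were seen, as was the split by gate gene. The alternative without cells whose barcode occurs in another library was chosen after seeing the data. Scripts ran in Python 3.11.15 with numpy 2.4.6 and scipy 1.17.1, and TMM factors came from edgeR 4.0.16 in R 4.3.3. The procedure was tested on simulated data.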

Additional observations from a re-analysis of the deposited data

Results flagged for a closer look

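In 4 named genes the ratio of gated over other cells lay above 0 in one bin and below 0 in another, each time with a 95% counting interval that left out 0. With 1 library per bin none of these differences was tested. Luc7l2, Sepp1 and Sept6 had been named for extreme ratios of GFPhigh over GFPlow within the gated cells. The same GFPhigh counts enter their sign changes, which are therefore descriptions and no separate support.

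Gimap4, a GTPase of lymphocytes, had a log2 ratio of 0.40 (0.04 to 0.74) in GFPhigh and -0.31 (-0.54 to -0.10) in GFPlow, a difference of 0.71. The gated level was 1160.5 UPM in GFPhigh and 770.1 UPM in GFPlow.

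Luc7l2, a splicing factor, had 0.71 (0.14 to 1.23) in GFPhigh, -0.73 (-1.20 to -0.29) in GFPlow and -0.48 (-0.86 to -0.12) in GFPmed. GFPhigh differed from GFPlow by 1.44 and from GFPmed by 1.20.

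Sepp1, which encodes a plasma selenoprotein, had 0.37 (0.01 to 0.72) in GFPmed and -1.47 (-3.35 to -0.10) in GFPhigh, a difference of 1.84. Sept6, a septin, had 0.51 (0.15 to 0.86) in GFPmed and -1.54 (-3.42 to -0.17) in GFPhigh, a difference of 2.05. Both GFPhigh values rest on 4 UMIs in the gated cells.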

How the results depend on the processing

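No paired analysis was possible because each bin is 1 library, and the labels number all of them as replicate 1. The shares of gated cells in GFPlow, GFPmed and GFPhigh were 11.04%, 12.4% and 3.01% among cells with at least 1000 UMIs, 3.91%, 2.86% and 0.732% on cells thinned to 500 UMIs, and 3.34%, 3.97% and 0.676% with at least 2 UMIs of Igfbp4 and of Ly6c. GFPhigh was lowest in each of these. Of the genes measured, 3.06% were called higher with TMM scaling and 4.07% with scaling outside ribosomal protein genes. Called lower were 6.32% with the gate on thinned cells, 7.65% with at least 2 UMIs of each gate gene and, with at least 50 UMIs per gene, 10.2% (878 genes of a larger number measured). With no minimum of UMIs per gene, 3.50% of genes were called higher and 0.772% lower for GFPhigh over GFPlow, 2.503% and 3.03% for GFPmed over GFPlow, and 5.65% and 0.562% for GFPhigh over GFPmed. Of the 97 genes called higher, 88 stayed above 0 with the gate on thinned cells and 94 with the stricter gate, and 97 in each of the other alternatives, leave-one-out included. In leave-one-out this was fixed in advance, because a call already asked for a ratio above 0 in every bin. It was also fixed with at least 50 UMIs per gene and with scaling outside ribosomal protein genes, so these are no check. Far fewer stayed called: of the 97, 21 with the gate on thinned cells, 23 with the stricter gate, 59 without GFPlow and 58 without GFPmed, and of the 571 genes called lower, 30.1%, 42.9%, 60.6% and 57.3%. The medians of the central, effector, TCR response and Treg signature lists kept their sign in every alternative run. The GIMAP median, -0.08, was 0.0064 with scaling outside ribosomal protein genes and 0.028 with the gate on thinned cells. On thinned cells Cd5 was 0.0050, Igsf23 -0.025 and Ndufb9 0.16, and with at least 2 UMIs of each gate gene Ifngr2 was -0.090 and Ndufb9 0.11. The cause of these moves was not tested. Depth limits rare genes most in GFPhigh, where 0 UMIs allow up to 48.4 UPM.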

Other observations

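Several gene groups lay close to the other cells. Of 43 measured interferon-stimulated genes, which respond to interferons, 1 (Ly6a) was called higher and 1, the guanylate-binding protein Gbp4 (-0.38), lower, with a median log2 ratio of -0.04 against -0.12 over all genes. The 8 GIMAP genes, GTPases that support lymphocyte survival, had 0 calls and a median of -0.08, and the 11 genes of MHC class I presentation had 0 calls and a median of -0.12. Oxidative phosphorylation genes, subunits of the respiratory chain, had 0 of 31 called higher and 5 lower, with a median of -0.06, beside 1.95% of all genes called higher and 11.5% lower. The 5 were Ndufs6 (-0.59), Ndufa13 (-0.57), Uqcrb (-0.57), Ndufb9 (-0.42) and Cox6b1 (-0.34). Ndufs6 was -0.29 and Ndufb9 -0.25 without GFPlow, both short of 20% lower.

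Genes of interleukin 2 and STAT5 signalling were called lower in 4 of 16 and higher in 1, beside the same shares of all genes, with a median of -0.20. The feedback regulators Cish (-0.43) and Socs1 (-0.42) and the receptor chain Il2rb (-0.38) were lower, and without 1 library each these were -0.29 (GFPmed left out), -0.30 (GFPhigh left out) and -0.23 (GFPlow left out). Of the KLF and quiescence factors, which hold T cells at rest, 2 of 21 were called higher (Lef1 and Satb1; 1.95% of all genes) and 2 lower (11.5% of all genes), the cell cycle inhibitor Cdkn1b (-0.65) and Btg2 (-0.58). Genes of dissociation and heat shock, which respond to tissue handling, were called lower in 4 of 14 and higher in 0, beside 11.5% and 1.95% of all genes, with a median of -0.28. Of the 15 T cell identity genes, Zap70 (-0.46) and Cd5 (-0.34) were called lower, with a median of -0.13. Without GFPmed Zap70 was -0.21 and without GFPhigh Cd5 was -0.30. On the insulin-like growth factor axis, the receptor Igf2r (-0.52, -0.92 to -0.13) was called lower and Igf1r (0.29, -0.09 to 0.68) was not called.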
